A study of Mus musculus with 26 samples.

Results

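A group of 10 genes whose proteins store, polyadenylate or translate mRNA in male germ cells was followed in RNA from adult mouse testes: *Ybx2*, *Ybx3*, *Ddx25*, *Dazl*, *Boll*, *Cpeb1*, *Papolb*, *Pabpc1*, *Paip2* and *Eif4g3*. They were chosen by symbol, and all 10 were found among the 51124 genes of the deposited table and passed the filter on low values. No gene of identical sequence is listed for any of them.

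Spermatids condense their chromatin and stop transcribing before they have finished building the sperm cell. Many of their mRNAs are therefore made early, held without ribosomes in ribonucleoprotein particles, and released for translation later. Y-box proteins coat the stored mRNAs, helicases carry mRNA out of the nucleus and into translation, and proteins of the DAZ and CPEB families bind sequences in the 3′UTR. Poly(A) polymerases lengthen the poly(A) tail, poly(A)-binding proteins sit on it, and the cap-binding complex assembled around eIF4G joins both ends of the mRNA and recruits the ribosome.

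The study gave the *Ythdc2* gene of mice binding sites for piR-A, a pachytene piRNA, within its 3′UTR by CRISPR/Cas9 editing of B6D2F1/J hybrid embryos, and asked how MILI and MIWI act on such sites. Whole adult testes of 3 genotypes were sequenced as RNA: wild type (WT, libraries N1 and N2), *10xPerf* with 10 fully complementary sites (N3 and N4) and *10xBulge* with 10 sites mismatched to the piRNA at positions 10 and 11 (N5 and N6). Both knock-in lines were kept homozygous, each is a line of its own with the sites in the same gene, and the 6 libraries came from 6 mice. Mice with a single site have immunoprecipitation libraries, which are not analysed here.

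The values are normalized read counts, read counts per gene that the authors divided by a size factor for each library. The libraries hold roughly 41.1 to 61.6 M reads, at which 3 reads are worth between 2.73 and 3.63 normalized counts, and the lowest value of the 10 genes is 358. *Ythdc2*, which carries the sites, ranged from 827 to 2458 normalized counts with overlap between the genotypes, and the insertion itself is not visible in a count per gene. The summed level of 12 spermatid markers was 516833 to 712586 in the WT and *10xPerf* libraries and 11809 and 15074 in N5 and N6. Of these markers, 11 were lower in *10xBulge* than in WT (adjusted p under 0.1 in limma). *Prm1* went from 283135 and 200780 in WT to 187 and 74.2, and *Acr* from 13075 and 8406 to 5484 and 3152. *Zpbp* did not pass, at 8128 and 9107 against 4586 and 10868, so *Acr* and *Zpbp* weigh heavily in the sums of N5 and N6. The 12 spermatocyte markers summed to 43716 to 66243 against 43384 and 55620. Sertoli cell markers (8 genes) summed to 17239 to 28274 against 65931 and 46061, Leydig cell markers (6 genes) to 43405 to 76468 against 285571 and 137284, macrophage markers (6 genes) to 2070 to 3217 against 8444 and 5470, spermatogonium markers (8 genes) to 4691 to 10185 against 17618 and 13812, and peritubular and vessel markers (5 genes) to 3758 to 6110 against 9936 and 6832. No marker was at 0 in all libraries. Apart from the spermatocyte sums, which overlapped, the sums of N5 and N6 lay outside the range of the other libraries. A sum is set mostly by the most abundant genes of a list. By the median log2 level, N6 lay within that range for spermatogonium markers (9.23 against 8.46 to 9.33). The same held for peritubular and vessel markers (9.26 against 8.57 to 9.32). Of the 12 spermatocyte markers, 0 passed between *10xBulge* and WT in limma (median log2 difference 0.0040). Against *10xPerf*, 1 was lower (median -0.39). Of the 5 peritubular and vessel markers, 0 passed between *10xBulge* and WT. In the same comparison 1 of the 8 spermatogonium markers was higher (*Kit*), as were 6 of the 8 Sertoli cell markers. Of the Leydig cell markers 4 of 6 were higher, and of the macrophage markers 4 of 6. Between *10xPerf* and WT, 0 of all 57 markers passed. The part of these levels in the results that follow was not tested. In RNA from whole testis, fewer cells of a type cannot be told apart from less RNA per cell. The libraries of a genotype also differed by base composition: across 12426 genes, the log ratio of N1 to N2 had a Spearman correlation of 0.63 with transcript GC content, that of N3 to N4 of -0.25 and that of N5 to N6 of 0.52.

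Per kilobase of transcript, 3 of the 10 genes stood far above the others by the mean of every genotype. The mean level in WT was 75882 normalized counts per kb for *Ybx2*, 35358 for *Ybx3* and 29162 for *Pabpc1*. These levels rank *Ybx2* 11th, *Ybx3* 47th and *Pabpc1* 65th among 21689 protein-coding genes. In WT, *Papolb* (4500), *Boll* (3043), *Dazl* (2539), *Eif4g3* (2340), *Ddx25* (1788) and *Paip2* (1749) followed, and *Cpeb1* came last with 270 normalized counts per kb. The WT libraries of *Ybx2* lay above those of *Ybx3*, the libraries of *Ybx3* and *Pabpc1* overlapped, each neighbouring pair from *Papolb* to *Paip2* overlapped, and *Cpeb1* lay below all. In *10xBulge*, the order per kb was *Ybx2* (31466), *Pabpc1* (25437), *Ybx3* (17037), *Dazl* (6254), *Boll* (3258), *Papolb* (1642), *Ddx25* (1588), *Paip2* (1206), *Eif4g3* (1083) and *Cpeb1* (529). The first 3 overlapped one another there, and so did each neighbouring pair from *Dazl* to *Eif4g3*. The place of *Dazl* in *10xBulge* came from N6 (9349 per kb), as N5 (3159) lay below the WT library N2 (3654). In N6 *Ybx3* was at 11674 per kb, not far above *Dazl*. In both *10xBulge* libraries *Ybx2*, *Ybx3*, *Papolb*, *Paip2* and *Eif4g3* were below WT. By their means *Papolb* moved from rank 862 in WT to 1933 and *Eif4g3* from 1732 to 3030. *Paip2* moved from rank 2281 to 2721, *Ybx2* from 11 to 28 and *Ybx3* from 47 to 67. Lengths are those of the longest protein-coding transcript, so a gene that uses a shorter one is understated.

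**Figure D1:**
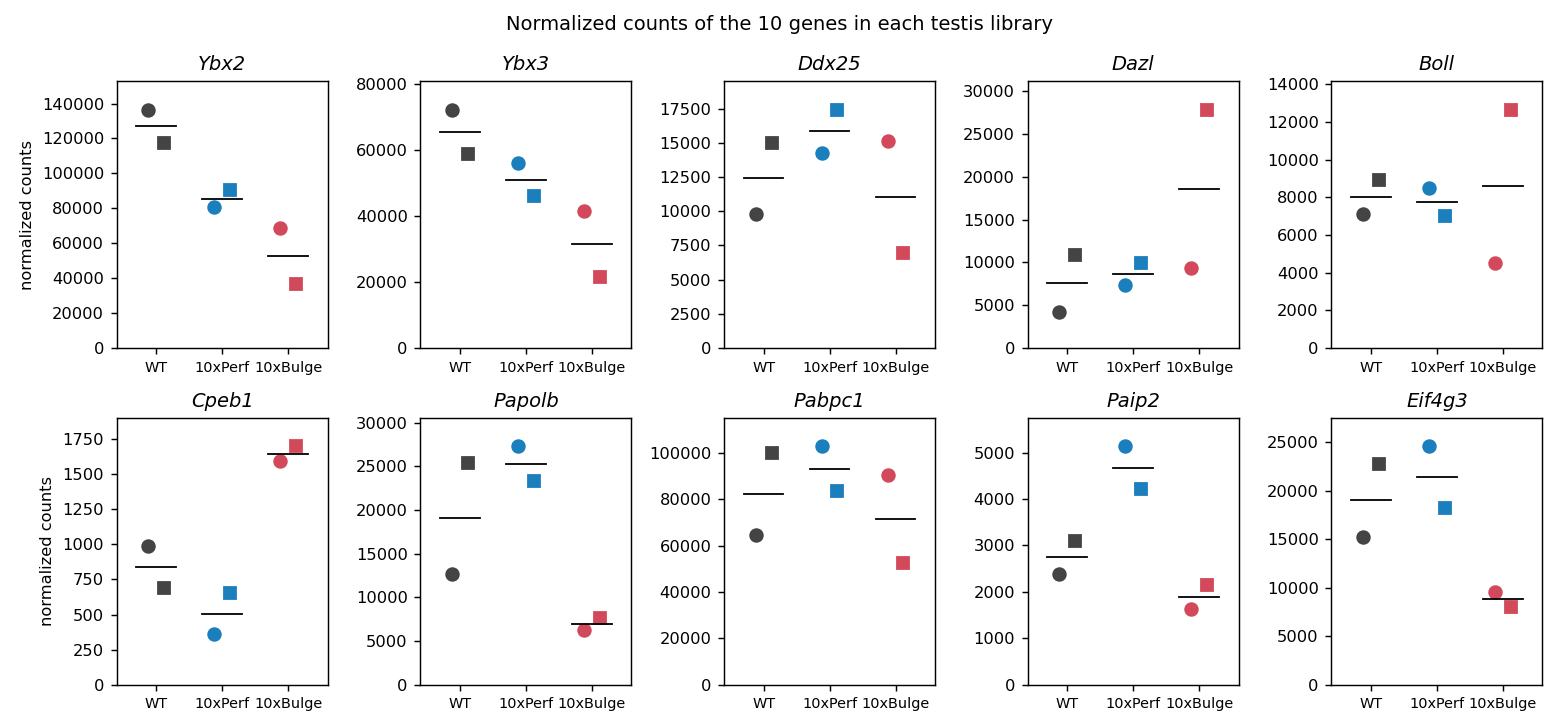
Normalized counts (y axis, linear, from 0) of each of the 10 genes in the 6 testis libraries, grouped by genotype on the x axis, where circles are N1, N3 and N5, squares are N2, N4 and N6, and lines are genotype means. *Ybx2*, *Ybx3*, *Papolb*, *Paip2* and *Eif4g3* lie below all other libraries in N5 and N6, and *Cpeb1* lies above them. The *10xBulge* pair is wide for *Dazl* and *Boll*.

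The Y-box proteins are named for the DNA motif CCAAT, which their cold-shock domain can bind in promoters, and YBX2 (MSY2) and YBX3 (MSY4) bind and stabilize stored mRNA in germ cells. *Ybx2* (ENSMUSG00000018554.14, GRCm38 chr11:69935796-69941605, + strand) had 136507 and 117396 normalized counts in N1 and N2, 80514 and 90616 in N3 and N4, and 68798 and 36488 in N5 and N6. Both WT libraries were the highest and both *10xBulge* libraries the lowest, with no overlap between any 2 genotypes. The mean was 2.41 times higher in WT than in *10xBulge*, and *Ybx2* fell by 1.34 on the log2 scale (SE 0.49, 95% interval -2.44 to -0.24, adjusted p = 0.0743 in limma). The call did not hold without N1, N2, N3, N4 or N6, where adjusted p ranged from 0.143 to 0.249, and the change without N6 was -0.88. The difference of *10xPerf* from WT was -0.57 (adjusted p = 0.853) and that of *10xBulge* from *10xPerf* was -0.77 (adjusted p = 0.271). *Ybx2* is rich in G and C (63.4%). With each library's trend over GC content removed, its difference of *10xPerf* from WT was 0.048 and it fell by 1.11 from *10xPerf* to *10xBulge* (adjusted p = 0.0468), which it also did without N5 (by 1.23, adjusted p = 0.0637).

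*Ybx3* (ENSMUSG00000030189.16, GRCm38 chr6:131364855-131388476, - strand) followed the same order. Its normalized counts were 72163 and 58874 in WT, 55978 and 46039 in *10xPerf*, and 41505 and 21633 in *10xBulge*. No 2 genotypes overlapped. The log2 difference of *10xBulge* from WT was -1.12 (SE 0.48, 95% interval -2.20 to -0.04) and missed the threshold with adjusted p = 0.117. It passed without N5 (-1.59, adjusted p = 0.0232), with the GC trend removed (adjusted p = 0.0477) and with upper-quartile scaling (adjusted p = 0.0556). Against *10xPerf* the difference was -0.76 (adjusted p = 0.267), again past the threshold without N5 (-1.23, adjusted p = 0.0701) and with the GC trend removed (-1.18, adjusted p = 0.0353). The difference of *10xPerf* from WT was -0.36 (adjusted p = 0.879) and 0.091 with the GC trend removed. *Ybx2* and *Ybx3* varied alike over the 6 libraries (Pearson r = 0.965 of log2 values, a description over libraries that share depth and base composition).

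The motif was looked up in the promoters that RefSeq gives on GRCm38.p6 (250 bases before to 50 after the start), which were available for 8 of the 10 genes, without *Pabpc1* and *Paip2*. These 8 genes have 11 promoter entries. CCAAT on either strand, where it reads ATTGG on the other, occurred in 5 of the 11 entries (45.5%), 1 each for *Ybx2*, *Papolb*, *Boll*, *Ddx25* and *Dazl*, beside 37.4% of all 32851 promoter entries. A stretch with the motif in capitals is shown for 3 genes, *Ybx2* because its protein is itself a Y-box protein, *Papolb* because it fell in *10xBulge*, and *Dazl* because its mean was higher there. The motif itself begins 140 bases before the RefSeq start of *Ybx2* (stretch at chr11:69935749-69935773, + strand), 73 before that of *Papolb* (stretch at chr5:142530135-142530159, - strand) and 47 before that of *Dazl* (stretch at chr17:50293653-50293677, - strand). *Ybx2* holds the motif a second time, 87 bases before the start, which is not printed. A match is a description of the letters and not of a bound site.
Ybx2: cgcggctacgATTGGccggcggccg
Papolb: agaatttcctCCAATctcgtgagag
Dazl: gctgccgcctATTGGctgtagcacg

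DDX25 is a testis DEAD-box helicase that takes part in mRNA export and in the translation of stored mRNA. *Ddx25* (ENSMUSG00000032101.7, GRCm38 chr9:35536647-35558528, - strand) had 9805 and 14993 normalized counts in WT, 14251 and 17421 in *10xPerf*, and 15096 and 6927 in *10xBulge*. The lowest library was N6 and the other *10xBulge* library lay among the *10xPerf* ones, so all genotypes overlapped. The log2 difference of *10xBulge* from WT was -0.25 with a 95% interval of -1.35 to 0.86 (adjusted p = 0.751). It changed sign without N2 (0.061) and without N6 (0.32), and *10xPerf* differed from WT by 0.38 (adjusted p = 0.878).

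The DAZ family members DAZL and BOLL bind 3′UTRs and help to load ribosomes, DAZL from spermatogonia into meiosis and BOLL in meiotic and later cells. *Dazl* (ENSMUSG00000010592.10, GRCm38 chr17:50279395-50293636, - strand) had 4239 and 10876 normalized counts in WT, 7335 and 9873 in *10xPerf*, and 9400 and 27823 in *10xBulge*. N6 was far above all other libraries, while N5 lay below N2 and N4, so the genotypes overlapped. The 2 WT libraries were 1.36 apart on the log2 scale and the *10xBulge* libraries 1.57. *10xBulge* differed from WT by 1.25 (SE 0.62, 95% interval -0.15 to 2.66, adjusted p = 0.172) and from *10xPerf* by 0.93 (adjusted p = 0.30). Without N5 these were 2.03 (adjusted p = 0.0256) and 1.71 (adjusted p = 0.0556), and without N6 the first was 0.47. *Dazl* has a low GC content (37.0%), and with the GC trend removed both differences passed the threshold, at 1.64 (adjusted p = 0.0351) and 1.52 (adjusted p = 0.0449).

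*Boll* (ENSMUSG00000025977.16, GRCm38 chr1:55248658-55363469, - strand) had 7129 and 8910 normalized counts in WT, 8508 and 7040 in *10xPerf*, and 4507 and 12664 in *10xBulge*. The *10xBulge* libraries were both the lowest and the highest of the 6. The log2 difference of *10xBulge* from WT was -0.08 with a 95% interval of -1.25 to 1.10 (adjusted p = 0.933). It was 0.67 without N5 and -0.82 without N6. Within each library, the level of *Dazl* per kb relative to *Boll* was 0.527 and 1.08 in WT, 0.763 and 1.24 in *10xPerf*, and 1.85 and 1.95 in *10xBulge*. Both *10xBulge* ratios were above those of the other libraries, although the levels of each gene overlapped.

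CPEB1 binds a short U-rich element in the 3′UTR and directs cytoplasmic polyadenylation. *Cpeb1* (ENSMUSG00000025586.18, GRCm38 chr7:81347026-81455465, - strand) was the least abundant of the 10 genes, with 988 and 691 normalized counts in WT, 358 and 656 in *10xPerf*, and 1592 and 1697 in *10xBulge*. Both *10xBulge* libraries were the highest, both *10xPerf* libraries the lowest, and no 2 genotypes overlapped. The mean was 3.24 times higher in *10xBulge* than in *10xPerf*, and *Cpeb1* rose by 1.76 on the log2 scale (SE 0.44, 95% interval 0.77 to 2.75, adjusted p = 0.0160), a call that did not hold without N3 (1.32, adjusted p = 0.171). Against WT the difference was 0.99 (95% interval 0.0041 to 1.98, adjusted p = 0.129). It passed the threshold at 1.37 with scaling by library totals (adjusted p = 0.0307) and at 0.98 with the GC trend removed (adjusted p = 0.0918). *10xPerf* differed from WT by -0.77 (adjusted p = 0.853).

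PAPOLB (TPAP) is the testis poly(A) polymerase that lengthens tails in the cytoplasm of spermatids. *Papolb* (ENSMUSG00000074817.3, GRCm38 chr5:142525838-142530076, - strand) had 12725 and 25427 normalized counts in WT, 27277 and 23263 in *10xPerf*, and 6277 and 7644 in *10xBulge*. Both *10xBulge* libraries were below the 4 others, and the higher WT library lay between those of *10xPerf*. The WT mean was 2.74 times the *10xBulge* mean, and the *10xPerf* mean was 3.63 times that mean. *Papolb* fell by 1.38 on the log2 scale from WT to *10xBulge* (SE 0.46, 95% interval -2.41 to -0.35, adjusted p = 0.0548). Without N2, N3, N4 or N5 adjusted p ranged from 0.111 to 0.226, the change without N2 was -0.88, and with library totals it was -0.99 (adjusted p = 0.132). From *10xPerf* to *10xBulge*, it fell by 1.86 (SE 0.46, 95% interval -2.89 to -0.83, adjusted p = 0.0149), a call lost without N3 (-1.75, adjusted p = 0.143). *10xPerf* differed from WT by 0.49 (adjusted p = 0.855), and by -0.013 without N1.

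PABPC1 is the main cytoplasmic poly(A)-binding protein, and PAIP2 binds it and keeps it from the tail, which lowers translation. *Pabpc1* (ENSMUSG00000022283.16, GRCm38 chr15:36595661-36609668, - strand) had 64457 and 99842 normalized counts in WT, 102905 and 83746 in *10xPerf*, and 90746 and 52565 in *10xBulge*. The genotypes overlapped. The log2 difference of *10xBulge* from WT was -0.22 with a 95% interval of -1.34 to 0.91 (adjusted p = 0.787), and it changed sign without N2 (0.10), without N6 (0.18) and with library totals (0.17). Reads of *Pabpc1* can also fit its close copies *Pabpc2* and *Pabpc6*, so the division among them is uncertain.

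*Paip2* (ENSMUSG00000037058.17, GRCm38 chr18:35598617-35617187, + strand) separated all genotypes, with *10xPerf* above WT and WT above *10xBulge*. Its normalized counts were 2394 and 3096 in WT, 5135 and 4220 in *10xPerf*, and 1637 and 2147 in *10xBulge*. From *10xPerf* to *10xBulge* it fell by 1.31 on the log2 scale (SE 0.39, 95% interval -2.19 to -0.43, adjusted p = 0.0342). That call did not hold without N3 (-1.17, adjusted p = 0.223), N4 (-1.45, adjusted p = 0.106) or N5 (-1.12, adjusted p = 0.117). Neither comparison with WT passed, at 0.77 for *10xPerf* (95% interval -0.11 to 1.65, adjusted p = 0.853) and -0.54 for *10xBulge* (95% interval -1.42 to 0.34, adjusted p = 0.343).

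EIF4G3 is a scaffold of the cap-binding complex that spermatocytes need to pass from meiotic prophase into the first division. *Eif4g3* (ENSMUSG00000028760.17, GRCm38 chr4:137993022-138208508, + strand) had 15278 and 22782 normalized counts in WT, 24574 and 18211 in *10xPerf*, and 9575 and 8037 in *10xBulge*. Both *10xBulge* libraries were below all others, and WT and *10xPerf* overlapped. *Eif4g3* fell by 1.09 on the log2 scale from WT to *10xBulge* (SE 0.42, 95% interval -2.04 to -0.13, adjusted p = 0.0905). The call was near the threshold, and without N1, N2, N3, N4 or N6 adjusted p was 0.113 to 0.281. It was also lost with library totals (-0.71, adjusted p = 0.196). From *10xPerf* to *10xBulge*, it fell by 1.27 (SE 0.42, 95% interval -2.22 to -0.32, adjusted p = 0.0519), without N3 by 1.05 (adjusted p = 0.311) and without N4 by 1.49 (adjusted p = 0.128).

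Counted over the 10 genes, 3 fell from WT to *10xBulge* (*Ybx2*, *Papolb* and *Eif4g3*) and 0 rose, while 34.4% of the 23782 genes tested passed the same threshold, 11.4% higher and 23% lower. The share of the 10 genes is therefore near that of all genes. At an unadjusted p under 0.05, limma gave 1 higher (*Cpeb1*) and 4 lower, beside 13.9% higher and 24.5% lower of all genes. The median log2 difference of the 10 genes was -0.39, beside -0.026 for all genes tested. Libraries of WT and *10xBulge* did not overlap for 6 of the 10 genes, beside 62.1% of all genes, with *Cpeb1* above WT (beside 28.9% of all genes) and 5 genes below it (beside 33.2%). The count of 3 depended on single libraries, with 1 without N1 or N6 and 0 without N2, N3 or N4, and without N5 *Dazl* was counted as higher. With scaling by library totals, which moved the median of all genes to 0.36, 1 gene was higher and 1 lower, and the share of higher genes among all genes called went from 33.2% to 55%.

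**Figure D2:**
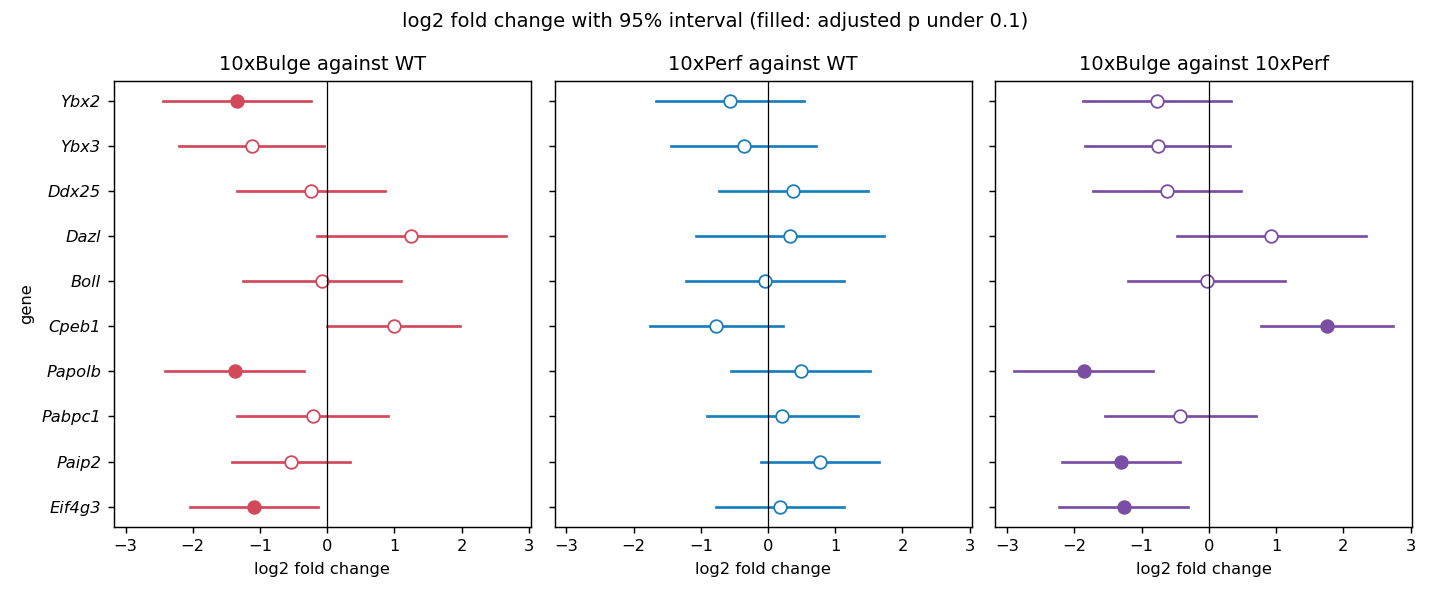
Log2 fold change (x axis) of each of the 10 genes in the 3 comparisons, with bars for the 95% interval from limma and filled points for an adjusted p under 0.1. Filled points are *Ybx2*, *Papolb* and *Eif4g3* for *10xBulge* against WT, none for *10xPerf* against WT, and *Cpeb1*, *Papolb*, *Paip2* and *Eif4g3* for *10xBulge* against *10xPerf*.

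Between *10xPerf* and WT, 0 of the 10 genes passed in limma, beside 0.959% of all genes tested, and 0 had an unadjusted p under 0.05, beside 6.09% of all genes. The median log2 difference was 0.20. Libraries did not overlap for *Ybx2*, *Ybx3*, *Cpeb1* and *Paip2*, that is for 4 of the 10 genes beside 40% of all genes, with *Paip2* above WT (beside 20.2%) and the other 3 below it (beside 19.8%). The widest differences were 0.77 for *Paip2* and -0.77 for *Cpeb1*.

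The comparison of *10xBulge* with *10xPerf* sets mismatched against fully complementary sites at the same number and place, and it shares the *10xBulge* libraries with the comparison with WT. *Cpeb1* rose, and *Papolb*, *Paip2* and *Eif4g3* fell, so 4 of the 10 genes passed, beside 37% of all genes tested (12.9% higher and 24.1% lower). Libraries did not overlap for 6 of the 10 genes, beside 66.1% of all genes, with *Cpeb1* above *10xPerf* (beside 30.7%) and 5 genes below it (beside 35.3%). The median log2 difference was -0.69, beside -0.067 for all genes. Leaving out N3 removed all 4 calls, leaving out N4 kept 1 of the 3 lower ones (*Papolb*), and leaving out N5 gave 2 higher and 4 lower genes. The share of higher genes among all genes called went from 34.9% to 49.8% with library totals.

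Ratios of 2 genes within a library do not depend on how libraries are scaled. The pairs that follow were chosen after the values were seen, so they are given per kb as a description. Of 14 pairs computed, the *10xBulge* ratios lay outside the range of the other 4 libraries in 9 and overlapped it in 5. The share over all pairs of genes was not computed, so this count is not a result about these genes. Of single genes, 62.1% did not overlap between *10xBulge* and WT and 66.1% between *10xBulge* and *10xPerf*. *Papolb* relative to *Papola*, the poly(A) polymerase used in all cells, was 3.64 and 3.65 in WT, 3.30 and 3.39 in *10xPerf*, and 1.35 and 1.24 in *10xBulge*. The libraries of a genotype were close in this ratio although the WT levels of *Papolb* were apart by 1.00 on the log2 scale. Reads of the 2 polymerase genes, which are copies of one another, could be divided between them.

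*Cpeb1* relative to *Cpeb3*, another member of the CPEB family, was 0.261 and 0.334 in WT, 0.149 and 0.265 in *10xPerf*, and 5.71 and 4.96 in *10xBulge*. The more abundant of both genes was thus *Cpeb3* in WT and *10xPerf* and *Cpeb1* in *10xBulge*. *Paip2* relative to *Paip1*, whose protein binds PABPC1 and favours translation, was 1.88 and 1.58 in WT, 2.77 and 1.77 in *10xPerf*, and 0.441 and 0.397 in *10xBulge*. The order of these genes also turned in *10xBulge*. *Pabpc1* relative to *Pabpc2* was 4.30 and 3.10 in WT, 3.32 and 2.84 in *10xPerf*, and 7.29 and 6.96 in *10xBulge*. *Eif4g3* relative to *Eif4g2*, whose protein lacks the part that binds the cap-binding protein, was 0.964 and 0.620 in WT, 0.569 and 0.580 in *10xPerf*, and 0.335 and 0.260 in *10xBulge*. In these 4 pairs the *10xBulge* ratios lay outside the range of the other libraries. *Eif4g3* relative to *Eif4g1*, the other scaffold of the cap-binding complex, did not separate them, at 0.565 and 1.03 in *10xBulge* against 0.834 to 0.983 in the other libraries. The ratios of *Pabpc1* to *Paip2*, of *Ddx25* to *Ddx4* and of *Ybx2* to *Ybx3* overlapped as well. *Ybx2* relative to *Ybx1*, the Y-box gene of all tissues, was 11.9 and 6.89 in WT, 3.73 and 3.79 in *10xPerf*, and 4.54 and 4.02 in *10xBulge*, so here both knock-in genotypes lay below WT. *Ybx2* has 63.4% and *Ybx1* 52.1% GC, and the ratio is not corrected for a library's GC trend. With that trend removed, the level of *Ybx2* alone differed by 0.048 (log2) between *10xPerf* and WT. No ratio was computed with the trend removed, and its part in this ratio was not tested. The mean of *Ybx1*, by which the ratio divides, was 13877 in WT and 22138 in *10xPerf*.

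**Figure D3:**
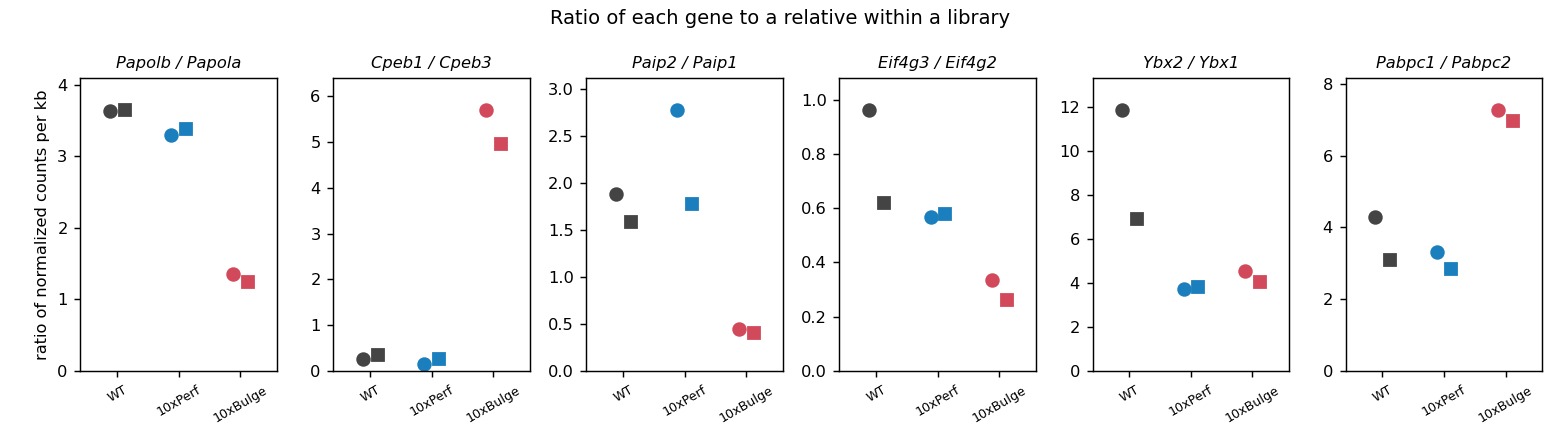
Ratio of normalized counts per kb (y axis, linear, from 0) of a gene to a relative within each library, by genotype on the x axis, with circles for N1, N3 and N5 and squares for N2, N4 and N6. *Papolb* to *Papola* is 3.30 to 3.65 in WT and *10xPerf* and 1.24 to 1.35 in *10xBulge*, and *Cpeb1* to *Cpeb3* is under 1 in the first 4 libraries and 4.96 and 5.71 in *10xBulge*.

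A list of 88 other genes of mRNA storage and translation was counted in the same fit, and 85 of them were tested, all but *Nanos2*, *Pabpc5* and *Pabpn1l*. From WT to *10xBulge*, 19 rose, 10 fell and 56 did not pass, which is 34.1% beside 34.4% of all genes. Of the list, 22.4% rose and 11.8% fell, beside 11.4% and 23% of all genes, and the median log2 difference was 0.42. The count of 19 was 32 with library totals, where the count of higher genes among all genes went from 2712 to 5788. It was smaller with N1, N3, N4 or N5 left out, and smallest without N1. The count over all genes was also smaller in these fits and smallest without N1. The size of the count thus rests on N1 and on the scaling, as that over all genes does. N1 is also the library with the largest share of 18S ribosomal RNA (*Rn18s*), 4.02% of its total against 0.0449% to 0.410% in the other 5, and the part of this in the count was not tested. No gene of the list passed between *10xPerf* and WT in limma, and 0 had an unadjusted p under 0.05. From *10xPerf* to *10xBulge*, 16 rose (18.8%, beside 12.9% of all genes) and 12 fell (14.1%, beside 24.1%). Fewer rose without N3, N4 or N5, and fewer fell without N3 or N4, with the fewest of both without N3. The counts over all genes were also smaller in these fits and smallest without N3.

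Genes of the CPEB family and of poly(A) polymerases, which include *Papola*, *Papolg*, *Tent4a* and *Tent4b*, gave 1 higher (8.33%) and 4 lower (33.3%) of 12 tested. For this and each group that follows, the shares of all genes are 11.4% higher and 23% lower. Counts in groups this small carry no test. *Cpeb3* fell by 3.18 on the log2 scale from WT to *10xBulge* (adjusted p = 0.000443), with 7171 and 3926 normalized counts in WT, 4573 and 4684 in *10xPerf* and 529 and 649 in *10xBulge*. *Tent5c*, a noncanonical poly(A) polymerase, fell by 2.46 (adjusted p = 0.00243), from 41507 and 32912 in WT to 7836 and 5757 in *10xBulge*. Its relative *Tent5a* rose by 1.77 (adjusted p = 0.0478), from 58.8 and 162 to 291 and 386. Members of this group thus moved both ways, as *Papolb* and *Cpeb1* had opposite signs.

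Of 7 poly(A)-binding proteins and their interactors, 2 rose (28.6%) and 1 fell (14.3%). *Paip1* rose by 1.51 (adjusted p = 0.0285), from 2067 and 3181 normalized counts in WT to 6034 and 8784 in *10xBulge*, and *Pabpc4*, a poly(A)-binding protein of somatic tissues too, rose by 1.33 (adjusted p = 0.0520), from 335 and 408 to 1235 and 701. *Pabpc1l* fell by 2.87 (adjusted p = 0.0252), from 191 and 95.2 to 9.13 and 33.4. The cap-binding and eIF4F factors gave 3 higher (23.1%, beside 11.4% of all genes) and 0 lower (beside 23%) of 13. *Eif4a1*, the helicase of the complex, rose by 1.58 (adjusted p = 0.0304), from 3512 and 6300 to 14136 and 14037. *Eif4a2* rose by 1.54 (adjusted p = 0.0415), from 3241 and 4087 to 7377 and 15251. *Eif4e1b*, a germline relative of the cap-binding protein, rose by 1.72 (adjusted p = 0.0950) at low levels, from 13.1 and 10.1 to 68.6 and 23.3.

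Among 18 proteins of stored ribonucleoprotein particles and P-bodies, 5 rose (27.8%, beside 11.4% of all genes) and 2 fell (11.1%, beside 23%). *Fxr1*, an RNA-binding protein that activates stored mRNA in spermatids, had 10080 and 16202 normalized counts in WT, 27225 and 22262 in *10xPerf* and 3363 and 5308 in *10xBulge*. No 2 genotypes overlapped, and it fell by 1.60 from WT to *10xBulge* (adjusted p = 0.0274) and by 2.54 from *10xPerf* (adjusted p = 0.00231). *Dcp1b*, of the decapping complex, fell by 1.32 (adjusted p = 0.0754), and *G3bp2*, of stress granules, rose by 1.39 (adjusted p = 0.0642).

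The RNA-binding proteins reported for mRNA control in spermatids gave 6 higher (31.6%, beside 11.4% of all genes) and 1 lower (5.26%, beside 23%) of 19. The lower one, *Samd4*, whose protein represses mRNAs that carry a stem-loop element, had 19897 and 13130 normalized counts in WT, 19948 and 17158 in *10xPerf* and 261 and 185 in *10xBulge*. It fell by 6.20 on the log2 scale from WT to *10xBulge* (adjusted p = 9.37e-06), the widest change among the list and the 10 genes. *Prkra* rose by 1.61 (adjusted p = 0.0178) and *Tsnax*, the partner of translin, rose from 1393 and 1840 to 4523 and 4563 normalized counts (adjusted p = 0.0172).

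Fewer calls came from the other groups. The Y-box and cold-shock genes gave 1 higher of 5, *Lin28a*, a regulator of undifferentiated spermatogonia (1.20, adjusted p = 0.0747). DEAD-box helicases gave 1 higher of 6, *Ddx3x* (1.49, adjusted p = 0.0772), whose reads can be shared with its copy *D1Pas1*, and 1 lower, *Ddx20* (-1.21, adjusted p = 0.0574). Early germ cell regulators gave 1 lower of 5, *Nanos3* (-1.60, adjusted p = 0.0577), from 83.8 and 79.0 normalized counts in WT to 24.6 and 27.7 in *10xBulge*. Its *10xPerf* libraries, at 28.8 and 60.6, were also below WT (-0.94, adjusted p = 0.853 in limma). Between *10xBulge* and *10xPerf* the difference was -0.66 (adjusted p = 0.396 in limma).

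**Figure D4:**
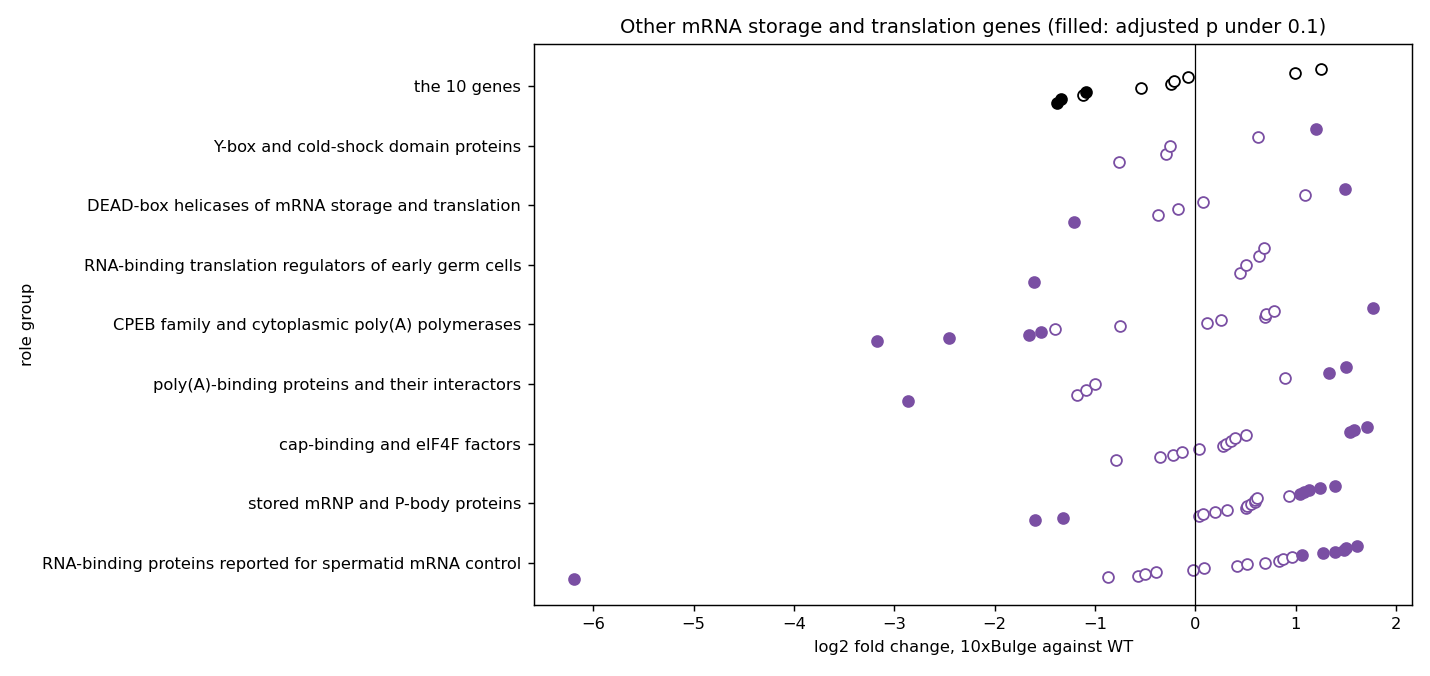
Log2 fold change of *10xBulge* against WT (x axis) for each gene of the 8 role groups (y axis, a point for a gene, filled where adjusted p is under 0.1). The 10 genes run from -1.38 to 1.25, the list from -6.20 (*Samd4*) to 1.77 (*Tent5a*).

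**Figure D5:**
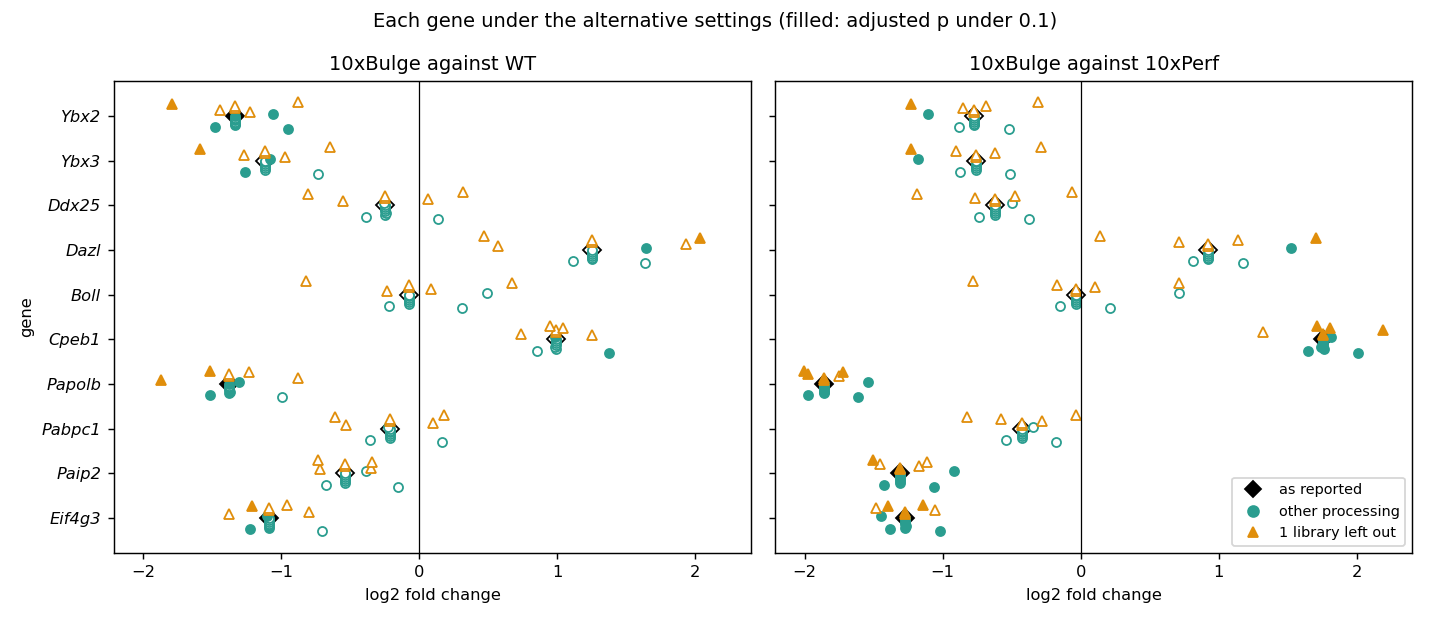
Log2 fold change (x axis) of each of the 10 genes as reported (diamonds), under other processing (circles) and with 1 library left out (triangles) and filled where adjusted p is under 0.1. *Papolb* stays at or below -1.54 and *Cpeb1* between 1.32 and 2.19 for *10xBulge* against *10xPerf*, while *Boll*, *Ddx25* and *Pabpc1* cross 0 for *10xBulge* against WT.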

How the data were processed

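Stranded libraries of ribosomal RNA-depleted total RNA (500 ng) from whole adult testes were read once over 100 nt. The authors quantified Ensembl transcripts of GRCm39 with salmon and its GC correction, and deposited a signal for each gene, the read count normalized by DESeq2. The log2 fold changes and adjusted p-values of the authors' own comparisons, deposited in the same table, were not used. Only 17.6% of genes above 0 were whole multiples of 1 step in every library (tolerance 0.001), so reads were not recovered and count tests were not run. Read numbers are sums divided by that step and cover counting error only. All columns of per-sample values were matched to a library by its label. The 20 MILI and MIWI immunoprecipitation libraries are not analysed here.

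The fit covered the 23782 genes that reached 10 normalized counts in 2 or more libraries. Their log2(value + 1) was modelled in limma 3.58.1 (R 4.3.3), with 1 term per genotype over all 6 libraries and a mean-variance trend. This scale understates the change of low genes. P-values were adjusted over all genes tested by Benjamini-Hochberg, with the threshold of 0.1 that the study used. An exact permutation test of 2 against 2 libraries cannot go below p = 0.33. The procedure was tested on simulated data with independent noise for each gene. These data held no GC trend of a library, so the test does not cover such trends. Each library is a different mouse.

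The 10 genes, the role groups and the markers were chosen with earlier results of these data known. All 10 genes are named, and from each role group up to 3 genes with the widest change among those past the threshold between *10xBulge* and WT whose libraries did not overlap. Genes of like pattern are the 2 with the highest Pearson r over the libraries, among genes with a mean of at least 100 normalized counts. Transcript length and GC content come from the longest protein-coding GENCODE transcript of a gene, or from its longest transcript where none is protein-coding. GRCm38 positions are those of GENCODE genes, and promoters come from RefSeq on GRCm38.p6. Alternatives were library totals or upper quartile scaling, pseudocounts of 0.1 and 10, no filter beyond 1 in 1 library or at least 10 in every library, only the 2 genotypes compared, a threshold of 0.05, no mean-variance trend, removal of each library's GC trend (loess, span 0.3, over 23614 genes), and leaving out each library. Python 3.11.15 and matplotlib 3.10.9 were used for figures.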

Additional observations from a re-analysis of the deposited data

How the results depend on the processing

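Each of the 10 genes was refitted in each of the 3 comparisons under 16 settings, and 409 of these 480 values kept their direction and side of the threshold, 34 lost a call, 13 gained one and 24 changed sign. From WT to *10xBulge*, 1 gene was higher when scaled by library totals and 2 after removal of the GC trend (0 as reported), and 0 to 1 with a library left out. Lower genes (3 as reported) numbered 0 at an adjusted p under 0.05, 1 with library totals, 1 without the filter, 0 with only the 2 genotypes fitted, and 0 to 3 with a library left out. Between *10xBulge* and *10xPerf*, 2 were higher (1 as reported) and 5 lower (3 as reported) with the GC trend removed, and 0 to 2 higher and 0 to 4 lower with a library left out. Between *10xPerf* and WT the counts were 0 throughout these settings. Of the list of 88 genes, those higher from WT to *10xBulge* (19) numbered 9 at an adjusted p under 0.05, 32 with library totals, 9 with only 2 genotypes, 12 without the mean-variance trend, and 2 to 19 with a library left out. Against *10xPerf*, higher genes (16) numbered 4 at 0.05, 8 without the trend and 0 to 16 with a library left out, and lower genes (12) numbered 19 with upper quartile scaling, 19 with the GC trend removed and 4 to 14 with a library left out. A stricter threshold can only keep or lower a count, and the cause of the other differences was not tested.

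The log2 values that changed sign had no call as reported. For *10xBulge* against WT they were *Ddx25* (0.14 with library totals, -0.81 to 0.32 with a library left out), *Boll* (0.31 with totals, 0.49 with the GC trend removed, -0.82 to 0.67) and *Pabpc1* (0.17 with totals, -0.61 to 0.18). For *10xPerf* against WT they were *Ybx2* (0.048) and *Ybx3* (0.091) with the GC trend removed, *Boll* (0.092 with totals, -0.20 to 0.12), *Dazl* (-0.35 to 1.01), *Papolb* (-0.013 to 0.99), *Pabpc1* (-0.11 to 0.53) and *Eif4g3* (-0.11 to 0.47), the last 4 with a library left out. *Boll* also did so against *10xPerf* (0.21 with totals, 0.71 with the GC trend removed, -0.78 to 0.71).

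Library totals put the median of all genes at 0.36 (log2) between *10xBulge* and WT, at 0.15 between *10xPerf* and WT and at 0.18 between *10xBulge* and *10xPerf*, and upper quartile scaling put it at -0.16, -0.0092 and -0.18. With at least 10 in every library, 47% of the genes called between *10xBulge* and WT were higher (33.2% as reported), and 48.2% against *10xPerf* (34.9%). Over all genes, *10xPerf* against WT gave 111 higher and 117 lower, but 4 and 24 without N3 and 3 and 28 without N4. No paired analysis was possible because the library numbers differ between genotypes. Without a library its genotype has a single one, which the pooled spread assumes to vary like the others. Count tests were not run because whole reads could not be recovered from the normalized values. With 2 mice per genotype the 95% intervals of the 10 genes span more than 1.5 on the log2 scale, so a difference that did not pass is not shown to be absent.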

Other observations

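For each of the 10 genes, the genes whose log2 values followed it most closely over the 6 libraries are given as a description, since 15856 genes were compared over 6 libraries that share depth, base composition and cell makeup. *Ybx2* was closest to *Limd2* (Pearson r = 0.998) and *9330171B17Rik* (0.995), and *Ybx3* to *Slc6a21* (0.998) and *Dot1l* (0.997), a histone methyltransferase gene. *Papolb* followed *Usp16* (0.997), a deubiquitinase gene, and *Ube2u* (0.997), and *Eif4g3* followed *Ccdc110* (0.996) and *Chchd3* (0.993). *Paip2* was closest to *Col25a1* (0.997) and *Gpatch2* (0.996). *Cpeb1* followed *Cyb561* (0.998) and *Ddr2* (0.996), a collagen receptor gene of mesenchymal cells. *Dazl* was closest to *Ro60* (0.997) and *Fam199x* (0.997), *Ddx25* to *Abcb1a* (0.995) and *Thoc5* (0.994), *Boll* to *Rnft1* (0.986) and *Tmed5* (0.986), and *Pabpc1* to *Rnf216* (0.991) and *Zcchc2* (0.988).

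Among the 10 genes, *Papolb* and *Eif4g3* followed each other (r = 0.959), as did *Papolb* and *Paip2* (0.920), and *Cpeb1* ran against all 3, with r = -0.934 for *Papolb*, -0.943 for *Paip2* and -0.943 for *Eif4g3*. *Dazl* ran against *Ybx3* (-0.923), and these genes differ in GC content, at 37.0% and 57.2%. *Ddx25* followed *Pabpc1* (0.893), and neither passed the threshold in a comparison. All these values rest on the same 6 libraries and carry no test.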
